A study of Mus musculus with 6 samples.

Results

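Stellate cells, portal fibroblasts and vascular smooth muscle cells make most of the connective tissue of the liver, and 10 genes of their filaments and non-collagen matrix were followed here in the livers of mice given poloxamer P-407. The genes were Vim, Des, Acta2, Tagln, Dcn, Lum, Bgn, Sparc, Mgp and Fn1, and they were found by gene symbol in the annotation of the array features. All 10 had 1 feature on the oligonucleotide array, among 16871 genes tested there, and 8 had 1 feature on the cDNA array, among 5011 genes tested. On the cDNA array no feature annotated with 1 gene was named Vim or Fn1, and features annotated with several genes were not used.

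The treated group was 12 female C57BL/6 mice, 7 weeks old at the start and fed a chow with 4.4% fat, which received 0.5 g/kg P-407, a block copolymer surfactant known to cause hyperlipidemia, into the abdomen every 3 days for 96 days. The control group was 4 mice of the same strain, sex, age and diet injected with saline on the same schedule, which the labels also call non treated. Liver RNA was pooled, giving 3 treated pools and 1 control pool, and each treated pool was read in Cy5 against that control pool in Cy3 on 1 oligonucleotide and 1 cDNA array, 6 arrays in all. Values are log2 ratios of treated over control, so a value above 0 means more RNA in the treated pool. The spread between control mice was not measured and no array had the dyes exchanged, so treatment and dye cannot be told apart for any single gene. All p-values and intervals below rest on the spread between the treated pools and their arrays, and leave out that of the control mice. The log base is read as 2; were the values natural logs, every fold would be larger (4.43 instead of 2.81 for Vim). The number of arrays limits the precision, and since the files hold ratios only, whether the tissue's defining markers were present could not be checked from levels.

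When the liver is injured, stellate cells are known to leave their resting, vitamin A-storing state and become contractile myofibroblasts, with intermediate filaments, smooth muscle actin and secreted matrix as their usual marks. The matrix genes in this group encode small leucine-rich proteoglycans, which bind collagen fibrils and growth factors, and glycoproteins that link cells, collagen and mineral. Several of these genes are also used by other cells: vimentin by macrophages and endothelium, and fibronectin by hepatocytes, which secrete the plasma form.

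Before the single genes, a few facts on the arrays bear on their values. The median SD of a gene over the 3 pools was 0.08 on the oligonucleotide array and 0.32 on the cDNA array, and the median absolute log2 ratio was 0.13 and 0.40. The cDNA array of pool 3 stood apart: over the genes tested, its ratios correlated with those of pools 1 and 2 at 0.34 and 0.29, against 0.70 between pools 1 and 2, all arrays sharing the control pool. It also had 3421 features at 0, against 5082 and 5332. The limma test called 43.4% of the genes on the oligonucleotide array (7318 of 16871), 22.0% higher and 21.4% lower, so a call there was common and the size of a ratio says more than the call.

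On the oligonucleotide array 8 of the 10 genes rose, 1 fell and 1 was not called, against the 22.0% and 21.4% called over all genes. The genes and the lists below were chosen with earlier results of these data known. Counts above those shares are therefore not independent of the choice. The median of the 10 mean log2 ratios was 0.47, beside 0.0027 over all genes tested. Vim and Mgp rose by more than 2-fold, Sparc, Acta2, Dcn and Lum by 1.33 to 1.65-fold, and Tagln and Des by less. In these bulk samples, more cells of a type and more RNA per cell cannot be told apart. The test shares its estimate of the spread across genes: when each gene's own SD was used alone, none of the 9 calls passed, with adjusted p from 0.0762 to 0.267, and 40 genes were called in all. With 1 pool left out, 7 to 8 of the 10 genes were higher and 0 lower. The calls lost were Fn1 without pool 1, 2 or 3, and Des without pool 2 or 3. Over all genes, calls fell from 7318 to 4025 without pool 1, 4935 without pool 2 and 6244 without pool 3. Calls lost from the lists below with a pool left out are to be read beside this loss across the array.

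**Figure D1:**
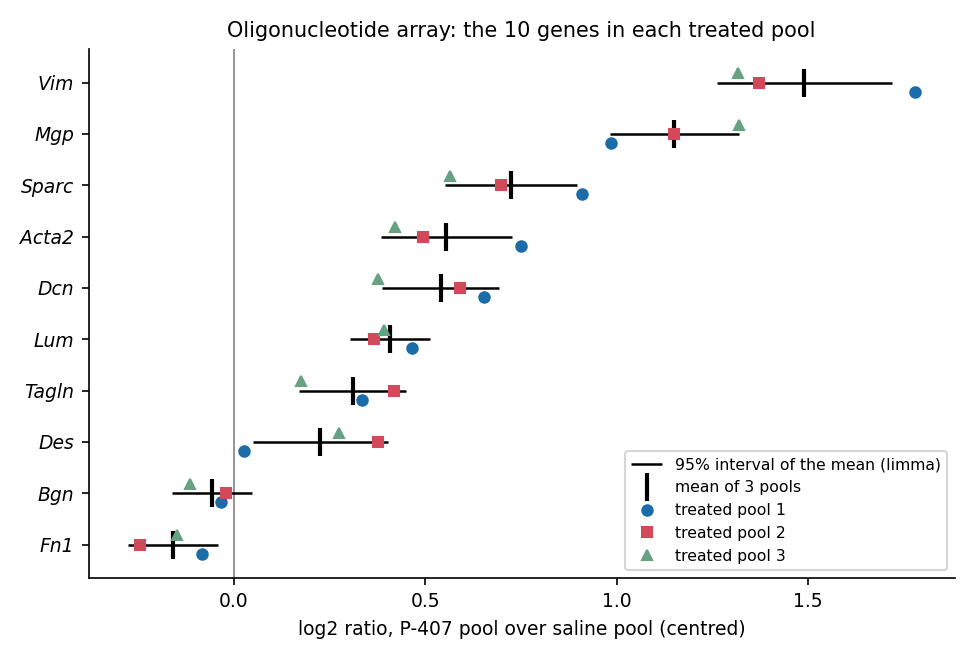
Log2 ratio of P-407 over saline (x axis) for the 10 genes (y axis) on the oligonucleotide array, with a symbol for each treated pool, a tick for the mean of 3 pools and a line for limma's 95% interval of the mean. Vim and Mgp lie to the right of the other genes, while Bgn and Fn1 lie just below 0 in all 3 pools.

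Among the intermediate filaments, Vim, which encodes vimentin, stood at 1.78, 1.37 and 1.32 in pools 1, 2 and 3 (log2 ratios on the oligonucleotide array). All 3 pools were far above 0, with pool 1 the highest. The mean was 1.49 ± 0.25 (SD, n = 3 pools), a 2.81-fold increase, with a limma adjusted p of 4.34e-04 and a 95% interval of 1.26 to 1.72. It ranked 40th from the highest of 16871 genes. Des, which encodes desmin, the filament of muscle and of rodent stellate cells, stood at 0.03, 0.38 and 0.27. Pool 1 was close to 0 and the mean of 0.23 ± 0.18 barely passed the test (adjusted p = 0.0475, interval 0.05 to 0.40). Of 12 genes of other intermediate filaments and their linkers, 2 were higher and 1 lower, with a median of 0.07. Over all genes 22.0% were called higher and 21.4% lower, so these counts did not exceed the background. Gfap, a filament gene of astrocytes that stellate cells also use, rose by 0.37 ± 0.09 and Krt18, a keratin of hepatocytes and ducts, by 0.29 ± 0.16, while Plec, the linker plectin, fell (-0.14 ± 0.01). Without pool 1 or without pool 2, 1 gene of this list was higher and 0 lower, and without pool 3, 4 and 0.

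The first stretch of Vim is shown as RefSeq gives it, since this was the gene with the highest ratio of the 10. It runs from 250 bases before to 50 bases after the start of the gene (GRCm38.p6, chr2:13574061-13574360, plus strand), and capitals mark the TATA box letters TATAAA, 32 bases before the start.

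Vim promoter: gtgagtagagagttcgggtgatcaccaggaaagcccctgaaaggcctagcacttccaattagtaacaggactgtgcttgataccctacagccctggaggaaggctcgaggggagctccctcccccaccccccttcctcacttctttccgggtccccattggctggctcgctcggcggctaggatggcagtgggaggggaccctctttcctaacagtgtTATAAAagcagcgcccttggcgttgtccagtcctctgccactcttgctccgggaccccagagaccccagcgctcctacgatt

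Those TATAAA letters, searched on both strands, were in 13.6% of 32851 such stretches of the RefSeq table. The table held 5 of the 10 genes, Acta2, Bgn, Des, Sparc and Vim, and Vim alone of these 5 had a TATAAA match.

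Of the contractile genes, Acta2, which encodes smooth muscle alpha-actin, the usual mark of activated stellate cells, stood at 0.75, 0.49 and 0.42 on the oligonucleotide array. All pools were above 0, and the mean of 0.55 ± 0.17 was a 1.47-fold increase (adjusted p = 0.00256). Tagln, which encodes the actin-binding protein transgelin, stood at 0.34, 0.42 and 0.18, with a mean of 0.31 ± 0.12 (adjusted p = 0.00802). All pools were above 0 here too. Of 14 other contractile and smooth muscle genes, 7 were higher and 1 lower (22.0% and 21.4% over all genes), with a median of 0.12. Actg2, which encodes the smooth muscle gamma-actin, rose by 0.56 ± 0.18 and Flna, the actin crosslinker filamin A, by 0.40 ± 0.06, while Tpm1, a tropomyosin, fell (-0.18 ± 0.07). Without pool 1 or without pool 2, 4 genes of this list were higher, and without pool 3, 5. With any 1 pool left out 0 were lower. Calls over all genes fell as well, from 7318 to 4025 without pool 1 and 4935 without pool 2. The actin genes are near-identical in their coding sequence, so how far the Acta2 and Actg2 features read each other's RNA is uncertain.

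CArG boxes are the sites of serum response factor, which is known to drive smooth muscle genes, and the stretch around the Acta2 start holds letters close to them. It is shown for that reason (GRCm38.p6, chr19:34255324-34255623, minus strand, 250 bases before to 50 after the start), with capitals marking each run that departs from the CArG box by at most 1 letter, at 84 and 34 bases before the start. Both strands were searched.

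Acta2 promoter: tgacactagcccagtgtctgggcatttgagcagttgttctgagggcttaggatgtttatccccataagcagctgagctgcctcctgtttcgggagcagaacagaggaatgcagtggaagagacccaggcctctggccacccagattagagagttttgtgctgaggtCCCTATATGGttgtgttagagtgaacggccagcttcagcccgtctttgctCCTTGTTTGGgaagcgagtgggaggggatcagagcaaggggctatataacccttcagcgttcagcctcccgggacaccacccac

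An exact CArG box was in none of the 5 genes and in 1.63% of the 32851 stretches, and a run with at most 1 other letter in 21.1%, Acta2 being the 1 gene of the 5 with such a run. GC boxes (GGGCGG, both strands) were in Bgn and Des and in 35.7% of all stretches, and AP-1 sites (TGANTCA, both strands) in none of the 5 and in 7.81%.

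The small leucine-rich proteoglycans did not move alike. Dcn, which encodes decorin, a proteoglycan that binds collagen and TGF-beta, stood at 0.65, 0.59 and 0.38, a mean of 0.54 ± 0.14 (1.45-fold, adjusted p = 0.00200). Lum, which encodes lumican and lies next to Dcn on chromosome 10, stood at 0.47, 0.37 and 0.39, a mean of 0.41 ± 0.05 (1.33-fold, adjusted p = 0.00152). Bgn, which encodes biglycan, the closest relative of decorin, stood at -0.03, -0.02 and -0.11. All 3 pools were just below 0, and the mean of -0.06 ± 0.05 was not called (adjusted p = 0.322), with an interval of -0.16 to 0.05. Of 10 other genes of this family and its relatives, 1 was higher and 3 lower (22.0% and 21.4% over all genes), with a median of -0.05. On the oligonucleotide array Ecm2 rose by 0.33 ± 0.09, against a mean of -0.68 on the cDNA array. Aspn, asporin (-0.78 ± 0.22), and Kera, the keratocan of the cornea (-0.54 ± 0.09), fell. Kera is the next protein-coding gene after Lum, so neighbours in this cluster had ratios of opposite sign.

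Among the glycoproteins, Sparc, which encodes osteonectin, a collagen-binding matricellular protein, stood at 0.91, 0.70 and 0.56. All pools were above 0, and the mean of 0.72 ± 0.17 was a 1.65-fold increase (adjusted p = 0.00125). Mgp, which encodes matrix Gla protein, an inhibitor of calcification, stood at 0.98, 1.15 and 1.32, and was the 1 gene of the 10 with its highest value in pool 3. Its mean of 1.15 ± 0.17 was a 2.22-fold increase (adjusted p = 3.96e-04) and ranked 80th from the highest. Fn1, which encodes fibronectin, stood at -0.08, -0.25 and -0.15. The mean of -0.16 ± 0.08 was the only decrease called among the 10 (adjusted p = 0.0394), 1.12-fold in size, and its call was lost with any pool left out. Of 9 hepatocyte markers, 6 were lower and 0 higher, against 21.4% and 22.0% over all genes. Their median was -0.55, with list means of -0.53, -0.56 and -0.44 in the 3 pools. The part of hepatocyte RNA in the ratio of Fn1 was not tested.

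Ordered by their means, Vim, Mgp and Sparc were apart from each other by more than the larger SD of each pair. From Sparc down through Acta2, Dcn, Lum and Tagln to Des, no gene differed from its neighbour by more than that SD. Des lay above Bgn, and Bgn above Fn1, by more than it. Pool 1 held the highest value of 6 genes, pool 2 that of 3 and pool 3 that of 1.

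The cDNA array read the same RNA with direct labelling. Limma called 0 of 5011 genes there (0%), with 1518 genes at an unadjusted p under 0.05, and called 1 when each gene's own SD was used alone. The smallest adjusted p over all genes was 0.0984. In simulated data with 200 changed genes, the test recovered 0% of log2 changes of 0.5 and 30% of those of 1 on this array type. Of changes of 2 and 4 it recovered 66% and 80%. On the oligonucleotide array it recovered 66% of changes of 0.5 and 92% of those of 1. The number of changed genes was not matched to these data, and recovery depends on it. By these simulations alone, the lack of calls on the cDNA array says little about changes of 0.5 or 1. Of the 8 genes measured, 0 were called and 4 had an unadjusted p under 0.05, namely Mgp, Lum, Bgn and Sparc, all with positive ratios in all 3 pools.

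Mgp stood at 1.38, 1.85 and 1.57 on the cDNA array, a mean of 1.60 ± 0.24 (adjusted p = 0.0984, interval 1.16 to 2.04). It was the highest of the 8, and no pool overlapped those of any other gene of the 8 but Lum. Lum stood at 1.47, 1.89 and 0.92, a mean of 1.43 ± 0.49 (adjusted p = 0.0991, interval 0.75 to 2.11). Bgn stood at 0.87, 0.71 and 0.55, a mean of 0.71 ± 0.16 (adjusted p = 0.102, interval 0.32 to 1.10). Sparc stood at 0.57, 0.32 and 0.35, a mean of 0.41 ± 0.14 (adjusted p = 0.148). These 4 matrix genes thus had positive ratios in every pool, Bgn included, whose 3 pools were below 0 on the other array type.

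The other 4 genes lay around or below 0 on the cDNA array. Acta2 stood at -0.17, -0.24 and -0.20, a mean of -0.20 ± 0.04 (adjusted p = 0.296), with all 3 pools below 0. Tagln stood at 0.16, -0.29 and -0.16 (mean -0.10 ± 0.23) and Dcn at -0.21, -0.05 and 0.14 (mean -0.04 ± 0.18). Des stood at -0.99, -0.57 and 1.03, and its mean of -0.18 ± 1.07 hid opposite signs. Without pool 3, whose array stood apart, the mean of Des was -0.78, and those of Mgp, Lum, Bgn and Sparc were 1.62, 1.68, 0.79 and 0.45.

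**Figure D2:**
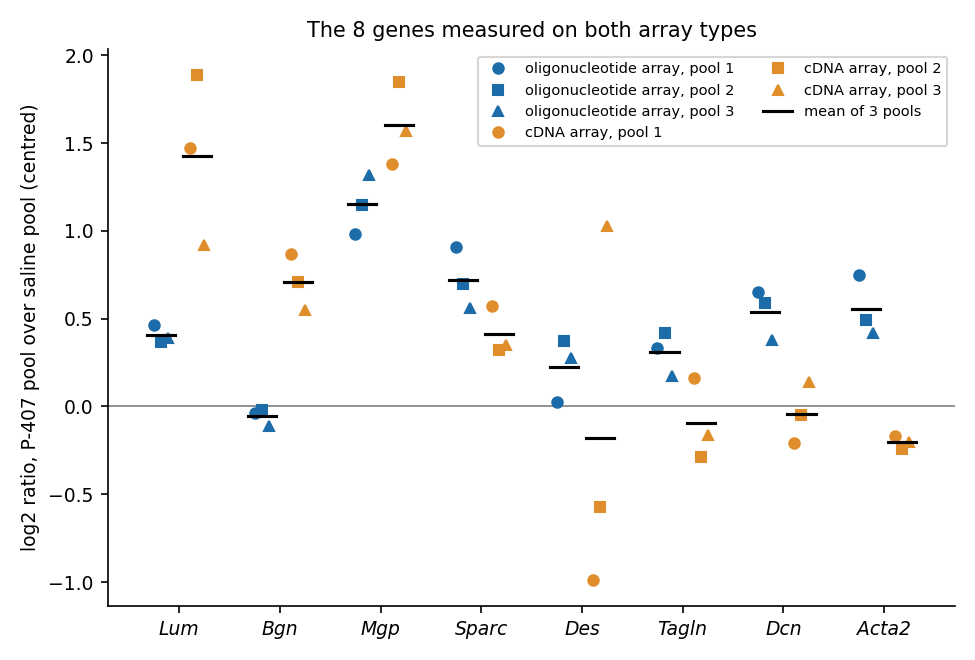
Log2 ratio of P-407 over saline (y axis) for the 8 genes measured on both array types (x axis), oligonucleotide array in blue and cDNA array in orange, with a symbol for each treated pool and a bar for the mean of 3 pools. Lum, Bgn and Mgp are higher on the cDNA array in every pool, while Dcn, Tagln, Acta2 and Sparc are higher on the oligonucleotide array in every pool.

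Whether the array types gave a gene different ratios was tested over the 4702 genes with a value on all 6 arrays, of which limma called 11.4% (6.25% higher and 5.17% lower on the oligonucleotide array). Of the 8 genes, 2 were called. Acta2 was higher on the oligonucleotide array, by 0.76 (interval 0.45 to 1.07, adjusted p = 0.0276), and Bgn was lower there, by -0.77 (interval -1.07 to -0.46, adjusted p = 0.0256). The difference of Dcn was 0.58 and that of Lum -1.02 (adjusted p = 0.0560 and 0.0571). Pool numbers pair the arrays, since both read the same RNA, and with the pool as a block 0 of 4702 genes passed, against 1317 at an unadjusted p under 0.05. Acta2 and Bgn each had an adjusted p of 0.128 in that fit. Without pool 1 or without pool 2, 0 of the 8 were called, as were 0 of the 4702 genes. Without pool 3, 4 of the 8 were called, with Dcn and Lum added, and calls over all genes rose as well. Actg2 had the same pattern as Acta2, with 0.56 ± 0.18 on the oligonucleotide and -0.52 on the cDNA array (difference 1.08, adjusted p = 0.0189 without the block).

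Averaged over the 2 arrays of each pool, Mgp and Lum rose, against 5.10% called over the 4702 genes (2.47% higher and 2.64% lower). Mgp had pool values of 1.18, 1.5 and 1.44, a mean of 1.38 ± 0.17 (2.59-fold, adjusted p = 0.0394). Lum had pool values of 0.97, 1.13 and 0.66, a mean of 0.92 ± 0.24 (1.89-fold, adjusted p = 0.0435). Sparc had a mean of 0.57 ± 0.15 (adjusted p = 0.0543) and Bgn of 0.33 ± 0.10 (adjusted p = 0.0836), neither called; with arrays scaled to a common spread Sparc passed (adjusted p = 0.0372). Without pool 1, 0 of the 4702 genes passed in this fit (689 at an unadjusted p under 0.05), and without pool 2 also 0 (807), so both calls were lost. With each gene's own SD alone, 0 genes passed (1186 at an unadjusted p under 0.05).

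**Figure D3:**
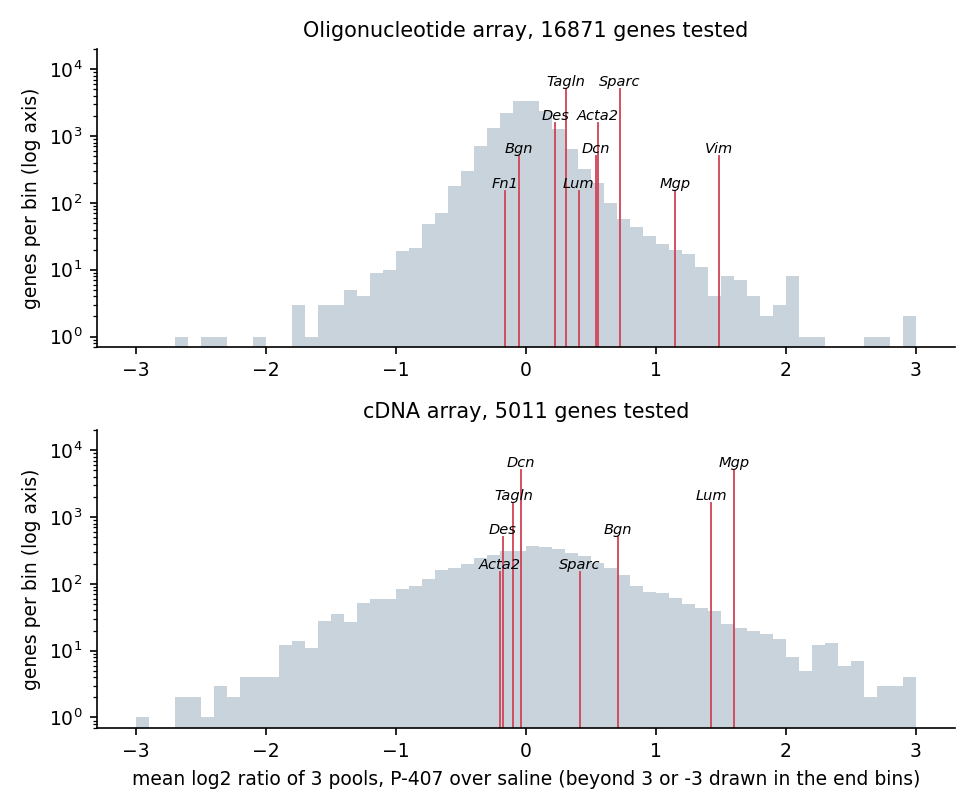
Number of genes per bin of 0.1 (y axis, log scale) by mean log2 ratio of P-407 over saline (x axis) on the oligonucleotide array (top) and the cDNA array (bottom), with a red line at each of the 10 genes measured there. Vim and Mgp lie in the right tail on the oligonucleotide array, and Mgp and Lum on the cDNA array, whose distribution is wider.

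The scales of the array types differed, so ranks were compared as well. Mgp was within the top 0.474% of genes on the oligonucleotide array and the top 2.79% on the cDNA array, and Sparc within the top 1.40% and 26.9%. Lum was within the top 4.97% and 3.81%. Acta2 was within the top 2.53% on the oligonucleotide array and at 67.1% on the cDNA array, and Dcn at 2.71% and 57.0%. Bgn took the opposite course, at 62.4% and 14.4%. By their means the order of the proteoglycans was thus Dcn, Lum, Bgn on the oligonucleotide array and Lum, Bgn, Dcn on the cDNA array. The gap between Dcn and Lum on the oligonucleotide array was 0.13, within the larger SD of 0.14. In pool 3 Lum (0.39) was above Dcn (0.38) there.

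Other genes of the same cells and matrix were counted on the oligonucleotide array as well. Of 13 measured genes of stellate cell identity, 6 were higher and 1 lower (background 22.0% and 21.4%), with a median of 0.14. Pdgfrb, the receptor for platelet-derived growth factor on stellate cells, rose by 0.56 ± 0.09 and Colec11, a collectin, by 0.46 ± 0.06, while Hand2, a transcription factor of stellate cells, fell (-0.22 ± 0.09). The other genes of this list called higher were Gfap, Lhx2 (0.28 ± 0.03), Lrat (0.52 ± 0.33) and Cygb. Without pool 1 or without pool 2, 4 genes of the list were higher and 0 lower. Of 15 collagens, 8 were higher and 0 lower, with a median of 0.15. Those with the smallest p were Col3a1 of reticular fibres (0.85 ± 0.05) and Col14a1 (0.45 ± 0.07). With pool 1, 2 or 3 left out, 6, 7 and 6 collagens were higher and 0 lower.

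Of 31 other matrix glycoproteins, 12 were higher and 2 lower (22.0% and 21.4% over all genes), with a median of 0.12. Dpt, dermatopontin, which binds decorin, rose by 0.53 ± 0.03 and Lamc1, a laminin chain, by 0.33 ± 0.05, while Ccn2, a matricellular gene induced by TGF-beta, fell (-0.85 ± 0.17) and Mfap5, of elastic microfibrils, fell (-0.19 ± 0.02). Of 22 genes of crosslinking, proteases and their inhibitors, 9 were higher and 2 lower (same background), with a median of 0.06. Mmp12, the macrophage elastase, rose by 0.67 ± 0.08 and Pcolce, an enhancer of procollagen processing, by 0.59 ± 0.01, while Plau, urokinase (-0.43 ± 0.05), and Lox, lysyl oxidase (-0.18 ± 0.09), fell. With pool 1, 2 or 3 left out, 8, 10 and 11 of the glycoproteins were higher, and 6, 7 and 8 of the crosslinking and protease genes. Without pool 1 or without pool 2, 1 of the glycoproteins was lower. Without pool 2 or without pool 3, 1 of the crosslinking and protease genes was lower.

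Of 18 genes of signals to stellate cells, 9 were higher and 1 lower (22.0% and 21.4% over all genes), with a median of 0.20. Tgfbr2, a receptor for TGF-beta, rose by 0.72 ± 0.14 and Pdgfa, a growth factor, by 0.41 ± 0.05. Pdgfd fell (-0.15 ± 0.03), a call lost with any pool left out. With pool 1 or pool 2 left out, 8 genes of this list were higher. Of 14 matrix receptors, 5 were higher and 2 lower (same background), with a median of 0.02. Itgb5 (0.48 ± 0.14) and Itgav (0.19 ± 0.04), which pair as an integrin, rose, while the syndecan Sdc4 (-0.49 ± 0.13) and the integrin chain Itgb1 (-0.29 ± 0.11) fell. Without pool 1 or without pool 2, 2 receptors were higher, and without pool 3, 3.

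**Figure D4:**
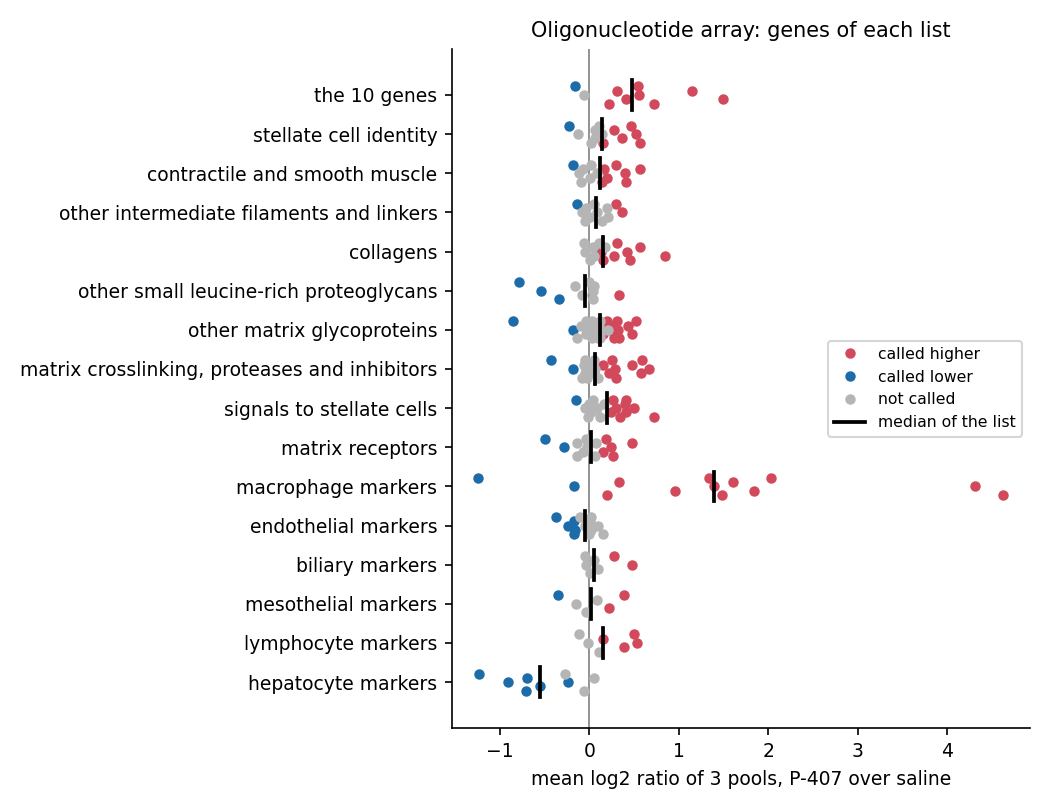
Mean log2 ratio over 3 pools of P-407 over saline on the oligonucleotide array (x axis) for the measured genes of each list (y axis), a point for each gene coloured by its limma call and a bar for the median of the list. The 10 genes have a median of 0.47 and the macrophage markers the highest median, at 1.39.

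Markers of other cells of the liver were read in the same pools, where 22.0% of all genes were called higher and 21.4% lower. Of 13 measured macrophage markers, 11 were higher and 2 lower, with a median of 1.39 and list means of 1.59, 1.31 and 1.41 in the 3 pools. Gpnmb and Trem2 had the smallest p among them, at 4.63 ± 0.07 and 4.31 ± 0.19, while Marco (-1.24 ± 0.76) and Vsig4 (-0.17 ± 0.05) fell. Without pool 1 or without pool 2, 10 were higher and 1 was lower. The part of macrophage RNA in the ratio of Vim, at 1.78, 1.37 and 1.32 in those pools, was not tested. Of 13 endothelial markers, 0 were higher and 5 lower, with a median of -0.04, among them Flt1, a receptor for vascular endothelial growth factor (-0.37 ± 0.07), and Oit3 (-0.24 ± 0.04). Without pool 1, 2 of these were lower, and without pool 2 or pool 3, 3 were, with 1 higher without pool 3. Of 6 mesothelial markers, 2 were higher (Gpm6a at 0.38 ± 0.05 and Wt1 at 0.22 ± 0.16) and 1 lower (Upk1b at -0.35 ± 0.07), with a median of 0.02, and 1 was higher without pool 1 or without pool 3. Of 7 biliary markers, 2 were higher and 0 lower, with a median of 0.06, namely Cd24a (0.48 ± 0.18) and Sox9 (0.27 ± 0.06). Of 7 lymphocyte markers, 4 were higher and 0 lower, with a median of 0.16. Ms4a1 (0.38 ± 0.02) and the leukocyte gene Ptprc (0.50 ± 0.17) had the smallest p of these. With pool 1 or pool 2 left out, 3 lymphocyte markers were higher. The hepatocyte markers with the smallest p were Arg1 (-0.70 ± 0.03) and Ass1 (-0.70 ± 0.05) of the urea cycle.

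On the cDNA array 0 genes of these lists were called, and the median of all genes tested was 0.06. Fewer genes of each list were measured there, so the list medians of the 2 array types rest on different sets of genes. Signs were taken against 0. The median of the signals (0.05) was below that of all genes tested, and the endothelial median (0.08) was close to it. List medians had the same sign as on the oligonucleotide array for 5 genes of stellate cell identity (0.39), 9 collagens (0.67), 15 other matrix glycoproteins (0.12), 10 genes of crosslinking and proteases (0.41) and 7 of signals (0.05). The same held for 3 other small leucine-rich proteoglycans (-0.37), 8 macrophage markers (1.34), 3 biliary markers (0.71) and 6 hepatocyte markers (-0.34). The sign was the opposite for 6 contractile genes (-0.24), 8 of other intermediate filaments (-0.10), 8 matrix receptors (-0.15), 5 endothelial markers (0.08), 5 lymphocyte markers (-0.42) and the 1 mesothelial marker measured (-0.97). Among genes named from the lists, the opposite sign was found for Actg2 (-0.52), Ecm2 (-0.68), Pcolce (-0.11), Plau (1.10), Itgav (-0.44) and Ms4a1 (-0.64). Plec, Col14a1, Lox, Pdgfa, Sdc4, Itgb1, Marco, Cd24a, Sox9 and Lrat had the same sign on both array types. The other named list genes were not measured on the cDNA array.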

How the data were processed

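The authors deposited 1 value per feature for each of 6 two-colour Agilent arrays, read here as log2 ratios of Cy5 (treated) over Cy3 (control), the dyes per the labels. For log base, background correction and normalization nothing is stated in the labels or headers. The largest absolute value, 6.34, is above the 4.82 that log10 of a 16-bit signal allows; a natural log is possible.

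Zeros were treated as missing, and the median of the remaining features (0.01 on each oligonucleotide array, -0.09 to -0.02 on the cDNA arrays) was subtracted; with zeros every column's median was 0. GEO's platform annotation gave 1 gene for 18658 of 22575 oligonucleotide features (several for 30, none for 3887) and for 7410 of 13482 cDNA features (several for 438, none for 5634). A RefSeq table of GRCm38.p6 held the gene IDs of 18445 and 7332 of these. Features of a gene were averaged, and genes needed a value on all 3 arrays.

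limma 3.58.1 (R 4.3.3), tested on simulated data, compared the mean ratio of 3 pools with 0 by lmFit and eBayes, with Benjamini-Hochberg adjustment across the whole table, calling adjusted p under 0.05. The saline pool counts as 1 control sample. The fit comparing array types had no block. Arrays are paired by pool number, since by the series' design text both types read the same RNA. Deviations of same-numbered arrays from a gene's mean correlated only weakly, at 0.06, 0.07 and 0.07. Those of all other pairs were negative, but the 3 deviations of a gene sum to 0. These negative signs thus give no separate support to the pairing.

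All 10 genes are named, and from each list the called genes with the smallest p on the oligonucleotide array, up to 2 in each direction. For stellate cell identity all called genes are named. The 10 genes and the lists were chosen with earlier results of these data known. Alternatives changed zeros, centring, scaling, features, missing values, the prior and the pools. Promoters came from RefSeq, searched with Python 3.11.15 and pandas 2.3.3; plots used matplotlib 3.10.9.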

Additional observations from a re-analysis of the deposited data

Results flagged for a closer look

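Limma's test of the difference between array types, which called 11.4% of 4702 genes, called 3 of the genes named. These were 2 of the 8 genes measured on both array types and 1 of the other genes named. Further genes of the lists, not named here, were called too. The difference, oligonucleotide minus cDNA array, was 0.76 for Acta2 (0.55 against -0.20), 1.08 for Actg2 (0.56 against -0.52) and -0.77 for Bgn (-0.06 against 0.71). With the pool as a block none of these passed.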

How the results depend on the processing

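On the oligonucleotide array, the counts of 8 genes higher and 1 lower were also found with zeros kept, without centring, with arrays scaled, with the feature of smallest SD, with a value on at least 2 arrays and with a robust prior, and each of the 10 genes had 1 feature, so the feature choice could not change its ratio. With each gene's own SD alone, 0 were higher and 0 lower (7 of the higher at an unadjusted p under 0.05), and 40 genes were called. With 1 pool left out, 7 to 8 were higher and 0 lower, and 4025 to 6244 genes were called, fewest without pool 1. A fit without a pool rests on 2 arrays. On the cDNA array, 0 of the 8 genes passed in every setting run, and 1 gene in all with its own SD alone. In the average of both types, 546 genes passed with scaled arrays, 0 with each gene's own SD and 0 to 373 with a pool left out; of the 8 genes 3 passed with scaled arrays (Sparc added), 0 with each gene's own SD and 0 to 2 with a pool left out. Of the differences between types, 0 genes passed with the pool as a replicate block (0 of the 8, 5 at an unadjusted p under 0.05), 831 with scaled arrays (4 of the 8) and 0 to 1077 with a pool left out (0 to 4 of the 8), most without pool 3; the cause was not tested. With a pool left out the differences had 751 to 2068 genes at an unadjusted p under 0.05.

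Signs reversed for Des and Dcn, whose cDNA means were near 0 and not called. Des on the cDNA array was 0.0031 with scaled arrays and -0.78 to 0.23 with a pool left out (0.02 without pool 2). Dcn was -0.13 to 0.045, above 0 without pool 1, and Tagln, also not called, -0.225 to 0, at 0 without pool 2. Des averaged over both types was -0.0021 without centring and -0.29 to 0.28 with a pool left out, below 0 without pool 3. Counts per list with a pool left out were added after seeing the data. The files hold no intensities, so signal over background is unknown.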
